A study of Mus musculus with 2 samples.

Results

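Reads that lay past the annotated 3' ends of genes were measured in whole brain of F1 mouse embryos at E17.5, in 2 libraries of polyadenylated RNA, 1 for each direction of a reciprocal cross. The BxC embryo had a C57BL/6J mother and a CAST/EiJ father, and the CxB embryo had the reverse parentage, so both were heterozygous F1 animals, neither carried an engineered allele or a treatment, and the crosses differed by design in which parent contributed which genome. The study took brains of both sexes for BxC and a male brain for CxB, and which BxC brain this library came from is not given in the sources used here, so a difference of sex between the libraries cannot be told apart from the cross. The study built the libraries to count alleles of imprinted genes; here they were read for total coverage, without regard to allele. The regions were windows of 0-1, 1-3 and 3-10 kb past the annotated end of every autosomal protein-coding gene of the mouse annotation (GENCODE vM1 on build mm9, NCBIM37) that had no other gene within 12 kb downstream and at least 500 reads in its last exon in each library. Of 37310 annotated genes, 21418 were autosomal and protein-coding, 8968 of these were isolated by 12 kb, and 2633 also passed the read minimum, which gave 7899 windows. The measure was the window ratio, the reads per base of a window divided by the reads per base of the last exon of the same gene in the same library. A ratio of 0.1 or more in both libraries is called an extension in that window. The genes were selected on their last-exon reads and the calls on the ratio itself, so window ratios are given as descriptions without a test, and since 1 library of each cross was analysed here no replicate spread could be had. Intervals on the window ratios of a gene cover counting error only. Those on shares treat each gene or end as an independent draw and hold no read-counting error.

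A gene's transcript is normally cut and given its poly(A) tail a short way past a hexamer, most often AATAAA or its variant ATTAAA, that is read by the cleavage and polyadenylation machinery. Many genes hold several such signals in a row, and the choice among them sets the length of the 3' untranslated region (UTR), the stretch that microRNAs and RNA-binding proteins bind. Brain is known for choosing distal signals, so the UTRs of neuronal transcripts tend to run long, and a gene model built on other tissues can stop short of them.

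Annotated ends with no read in the 0-1 kb window of either library are shown first, each with the hexamer (capitals) just ahead of the end. They are those of Gja1, which encodes the gap junction protein connexin 43, on chr10:56110207-56110236, Lsamp, a neuronal cell adhesion protein, on chr16:42181762-42181791, and Dlk1, a Notch family ligand that is imprinted, on chr12:110701514-110701543, all on the plus strand of mm9 and all read 5' to 3'.
Gja1: ttaatttagtatAATAAAgataacctgcat
Lsamp: aaaacaaaatgaAATAAAcgtgaaaaggag
Dlk1: tgtttattgttaAATAAAggaacaagggct

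A second kind of annotated end had no hexamer in its last 50 bases and ran into A-rich genomic sequence. The search stopped at the annotated end, and an A-rich stretch past the end can itself hold the hexamer. AATAAA stands in that stretch in Klf12, printed here, and in Prox1, Pde7b and AI504432, which are described further on. The lower-case letters are the last 10 bases of the annotated last exon and the capitals are the 20 genomic bases past it, for 4 genes whose reads continued: the forkhead factor gene Foxn3 (chr12:100433193-100433222, minus strand), the nuclear receptor corepressor gene Lcor (chr19:41636727-41636756, plus strand), the Krüppel-like factor gene Klf12 (chr14:100269849-100269878, minus strand) and Sox11, a transcription factor of immature neurons (chr12:28025542-28025571, minus strand).
Foxn3: gattcctttgAAGAAAAAGAAAAAAAAAAA
Lcor: tgagcctctcAAAAAAAAAAAAAAACTTAA
Klf12: agttttcatcACAATAAAAAAAAAAAAACC
Sox11: ctggtgatttAAAAAAAGAAAAACACAAAA
The 20 bases held 18 A in Foxn3, 17 in Lcor, 16 in Klf12 and 17 in Sox11.

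The third set is the hexamers found beside the place where the reads past the annotated end fell off sharply, in 5 genes described further on. They lie in Odz3, the gene of the transmembrane adhesion protein teneurin 3 (chr8:49311030-49311059, minus strand), Dlg2, which encodes a scaffold of the postsynaptic density (chr7:99597562-99597591, plus strand), Cadm1, a synaptic cell adhesion gene (chr9:47670330-47670359, plus strand), Prox1, a homeobox gene of neural progenitors (chr1:191941920-191941949, minus strand), and Foxn3 (chr12:100428305-100428334, minus strand).
Odz3: tctaggcattccAATAAAagccaacccaat
Dlg2: tttgtgtaaaaaAATAAAgcacacacgatt
Cadm1: cttttctttacaAATAAAtaaacgcttttg
Prox1: aagcttgtgcaaAATAAAatatacattaca
Foxn3: tcttccagttgcAATAAAaattactgagtt

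Read totals were 128944754 for BxC, on 36575945 alignment lines, and 109719746 for CxB, on 31155725 lines, when the number on each line is read as a count of identical reads. That reading is inferred from the values, and both totals are above the mean yield before alignment that the study's methods give, a gap that was not resolved. The genes' last exons had a median of 1933 and 1739 reads. Reads of brain genes were abundant: Nova2, a neuronal splicing factor, had 50664 last-exon reads in BxC and 45608 in CxB, and Grin2b had 10732 and 9130. The globin gene Hbb-b1 had 20218 and 13832, so the tissue also held red-cell RNA. The libraries were only partly stranded, and the gene's strand held the minority of reads: a median of 40.1% of last-exon reads in BxC and 39.1% in CxB lay on the annotated strand of the gene. A gene's own reads thus lay mostly on the opposite strand. A low share on the gene's strand does not by itself mark reads of another gene or antisense reads, and its origin was not tested.

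For most genes the read density was low past the annotated end. The median window ratio in the 0-1 kb window was 0.0114 in BxC (order-statistic 95% interval over genes 0.0102 to 0.0125) and 0.0114 in CxB (0.0106 to 0.0124). It was 0.00809 and 0.00774 in the 1-3 kb window and 0.00339 and 0.00329 in the 3-10 kb window. The upper tail was long: the 95th percentile of the ratio was 0.520 and 0.507 in the 0-1 kb window, 0.315 and 0.321 in the 1-3 kb window, and 0.0880 and 0.0868 in the 3-10 kb window. With each distinct position counted once, in place of each read, the 0-1 kb medians were 0.02676 and 0.02519, and among genes with at least 2000 last-exon reads they were 0.006935 and 0.007097. Taken over 250-base bins, the 90th percentile came down from 0.205 of the last-exon density in the first bin of BxC to 0.0166 at 10.5 kb.

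**Figure D1:**
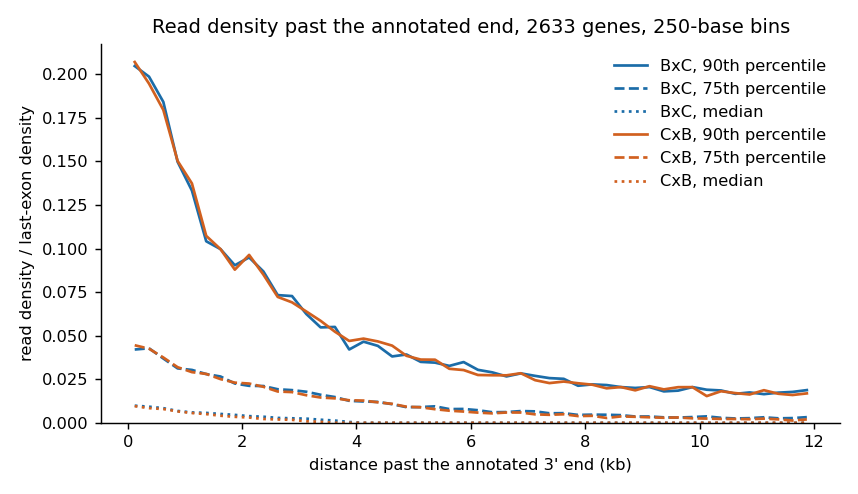
Read density past the annotated 3' end divided by last-exon density, in 250-base bins out to 12 kb, with the median, the 75th and the 90th percentile over 2633 genes for BxC (blue) and CxB (orange). The lines of the libraries lie on each other, the median starts near 0.01 and the 90th percentile starts near 0.2 and declines with distance.

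Extensions were called for 367 genes in the 0-1 kb window (13.9% of the 2633), for 250 in the 1-3 kb window (9.49%) and for 116 in the 3-10 kb window (4.41%). Among the 1166 genes with at least 2000 last-exon reads the shares were 8.49%, 4.80% and 1.72%. At least 1 window was called in 422 genes. Of these, 153 were called in the 0-1 kb window alone, 121 in the 0-1 and 1-3 kb windows but no further, and 89 in every window. The calls were nested for the most part, since 84.0% of the genes called in the 1-3 kb window were also called in the 0-1 kb window, and 80.2% of those called in the 3-10 kb window were. The window ratios of a gene share their divisor, so calls in its windows are not independent of each other. The ratio reached 1 or more in both libraries, that is a density past the end at least as high as in the last exon, in 43 genes in the 0-1 kb window (1.63%), 29 in the 1-3 kb window (1.1%) and 7 in the 3-10 kb window (0.266%). At the read minimum itself the genes just inside were Zfp738 (500 and 544 last-exon reads in BxC and CxB), 9030612E09Rik (630 and 501) and Fstl4 (637 and 503), and the genes just outside were 4632415L05Rik (651 and 498), Gm5148 (709 and 498) and En1 (620 and 497).

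The highest 0-1 kb ratios, by the lower of the libraries and with reads in most of the bins of the window, belonged to Pde7b, Slitrk3, Wasf3, Fam59a, Kcnk9, Dlg2, Gpr27 and Odz3. Slitrk3, a synaptic transmembrane protein, had 1119 reads per kb in its last exon and 3673 in the next 1 kb in BxC, and 859.5 and 2637 in CxB. Its 0-1 kb ratios were 3.28 (95% interval 3.14 to 3.44) and 3.07 (2.91 to 3.24), and by 1-3 kb they were down to 0.180 and 0.126. Dlg2 went from 1979 reads per kb in the last exon to 6050 past it in BxC and from 1641 to 4422 in CxB, ratios of 3.06 and 2.69. In both genes the annotated last exon had fewer reads per kb than the 1 kb past it in each library.

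Odz3 had 0-1 kb ratios of 2.48 in BxC and 2.32 in CxB and 1-3 kb ratios of 0.433 and 0.434. Wasf3, an actin regulator of the WAVE family, had 3.32 and 3.02, and Pde7b, a cyclic AMP phosphodiesterase, had 4.57 and 3.83. Gpr27, an orphan G protein-coupled receptor of brain, had 2.79 and 2.46. These extensions ended inside the windows: the Pde7b ratio in the 1-3 kb window was 0.00868 and 0.00443, and that of Odz3 in the 3-10 kb window was 0.00272 and 0.00226. Of the reads past the end of Pde7b, 19.3% and 17.6% lay on the gene's strand, against 46.5% and 45.3% in its last exon. What this difference comes from was not tested.

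In the 1-3 kb window the highest ratios, ranked in the same way, belonged to Zfp738, Mau2, AI504432, Klf12, Fam173b, Ttc9, Foxn3 and Lcor. AI504432 had ratios of 2.50 in BxC and 2.50 in CxB, and Fam173b 2.47 and 2.16. Klf12 had 770.4 reads per kb in its last exon and 1852 at 1-3 kb in BxC, and 675 and 1677 in CxB, ratios of 2.40 and 2.48. Foxn3 had ratios of 2.15 and 1.81, and Lcor 1.80 and 2.66. Ttc9, which encodes a tetratricopeptide repeat protein, had 2.08 and 2.06 with a 3-10 kb ratio of 0.00612 and 0.00949. All of the genes listed had a ratio above 1 in both libraries, and the libraries were furthest apart for Mau2, which is described next.

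The ratio was not always carried by an even run of reads. Mau2, which encodes a loader of cohesin, had 24214 reads at 1-3 kb in BxC and 126215 in CxB, ratios of 4.46 and 28.1. Those reads lay almost wholly on the opposite strand, with 0.797% and 0.157% on the strand of Mau2, whereas its last exon had 44.4% and 42.8%. They fell on 656 and 908 distinct positions, and counted once each these gave ratios of 0.679 and 1.03. The pooled 1-3 kb density of the libraries differed with Mau2 and hardly without it: the pooled ratio over all genes was 0.0383 in BxC and 0.0519 in CxB, and without Mau2 0.0357 and 0.0361.

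Rbm26, an RNA-binding protein, was a milder case. Its 1-3 kb ratios were 2.91 and 2.40 while its 0-1 kb ratios were 0.0282 and 0.0177, so there was a gap in coverage between the last exon and these reads. Of those reads 11.1% and 14.7% lay on the strand of Rbm26, against 41.0% and 44.5% in its last exon. Zfp738, a zinc finger gene at the read minimum, had 1-3 kb ratios of 12.6 and 11.02, the highest of all genes by the lower of the libraries, on 247 and 233 distinct positions, and 2.03 and 1.86 with each position counted once.

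The longest extensions passed through the 3-10 kb window. A run was called continuous when each of the 20 bins of 500 bases out to 10 kb held at least 5% of the last-exon density on the gene's strand in both libraries, and 11 genes met this (0.418%). The count was 6 with every bin at 10% and 19 with the last 1 kb of the exon as divisor. Among genes with at least 2000 last-exon reads it was 1. Grin2b, an NMDA receptor subunit gene, was the best covered of the 11. Its density was 2603 reads per kb in the last exon, 1856 at 0-1 kb, 1316.5 at 1-3 kb and 1978 at 3-10 kb in BxC. In CxB the values were 2214, 1695, 1249 and 1982. The 3-10 kb ratio was 0.760 (0.741 to 0.779) in BxC and 0.895 (0.872 to 0.919) in CxB, and no gene was annotated within 145.5 kb downstream. In both libraries the density at 3-10 kb was higher than at 1-3 kb.

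Fbxl17, an F-box component of a ubiquitin ligase, had 584.1 and 503 reads per kb in its last exon and 469.4 and 417.4 at 3-10 kb, ratios of 0.804 and 0.830. Dyrk1b, a protein kinase, had 3-10 kb ratios of 0.664 and 0.707, and Xkr6, of the family of XK-related membrane proteins, had 0.449 and 0.459. Kcnk9, an imprinted potassium channel gene, combined both patterns. It had 921.2 reads per kb in the last exon, 2812 at 0-1 kb, 592.5 at 1-3 kb and 386.6 at 3-10 kb in BxC, and 892, 2545, 616 and 411.3 in CxB. The annotated end of Kcnk9 was its stop codon, and its reads ended near 10 kb.

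**Figure D2:**
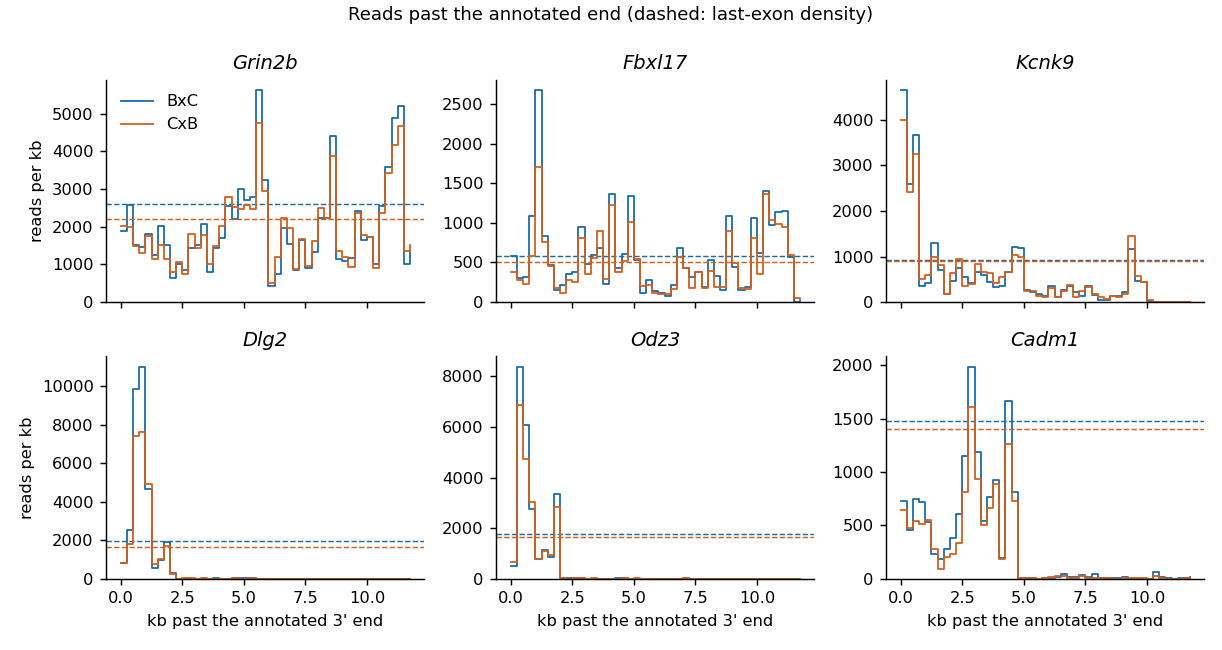
Reads per kb in 250-base bins out to 12 kb past the annotated end of 6 genes, for BxC (blue) and CxB (orange), with the last-exon density of each library as a dashed line. Grin2b and Fbxl17 still have reads beyond 10 kb, Kcnk9 drops to near 0 past 10 kb, and Dlg2, Odz3 and Cadm1 end near 2 kb, 2 kb and 4.6 kb in both libraries.

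Fzd3, a Wnt receptor that guides axons, had the highest 3-10 kb ratios among genes with no other gene's 3' end facing them within 20 kb and reads over most of the window. Its densities in BxC were 720 reads per kb in the last exon, 703 at 0-1 kb, 1068.5 at 1-3 kb and 1110 at 3-10 kb. In CxB they were 542.7, 578, 762 and 1075. The 3-10 kb ratios were 1.54 (1.46 to 1.63) and 1.98 (1.86 to 2.12), and the run of reads ended 8.5 kb past the annotated end. Sox11 reached 6 kb with 3-10 kb ratios of 0.189 and 0.176, and Prox1 3.75 kb with 0.112 and 0.117.

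Where the 3' ends of neighbours faced each other within 20 kb, their windows overlapped and reads in the overlap were counted for both. This held for 308 of the 2633 genes, for 17 of the 116 called at 3-10 kb and for 5 of the 11 continuous genes. Lrrc7, a postsynaptic density protein, and Lrrc40, its neighbour, are 14.4 kb apart, and their 3-10 kb windows held 6035 and 6008 reads in BxC and 4266 and 4448 in CxB. Gabrb1, a GABA-A receptor subunit, and Commd8 are 18.6 kb apart. Gabrb1 had 3-10 kb ratios of 1.22 and 1.25 and Commd8 1.46 and 1.52, and 42.8% and 40.9% of the reads lay on the strand of Gabrb1, against 55.6% and 56.0% on that of Commd8.

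Hipk2, a nuclear protein kinase, and Clec2l, a C-type lectin gene, lie 13.5 kb apart. Hipk2 had reads from its own end onward, with 0-1 kb ratios of 0.650 and 0.632, whereas Clec2l had 0.00274 and 0.00220 there and 1.19 and 1.18 at 3-10 kb. The share of reads on the annotated strand in the 3-10 kb window was 87.2% and 86.9% for Clec2l and 14.0% and 14.1% for Hipk2. Reads in such windows cannot be told apart by gene from the counts alone. Without the 308 genes, calls were 327, 224 and 99 in the 3 windows, or 14.1%, 9.63% and 4.26% of 2325 genes.

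A separate group was called at 3-10 kb with no call nearer the gene, 15 genes in all, of which 2 were faced by another 3' end. Nlgn1, the synaptic adhesion protein neuroligin 1, had 3-10 kb ratios of 0.128 and 0.141 while the 1-3 kb ratios were 0.0391 and 0.0389. Shisa2, an endoplasmic reticulum protein, is 1 of the 2 that are faced, by the 3' end of Atp8a2 at 15.87 kb, and its reads cannot be told apart from those of that gene. Its 3-10 kb ratios were 0.737 and 0.744 and the 0-1 kb window held a ratio of 0.0366 in BxC and no read in CxB. Of the 116 genes called at 3-10 kb, 96 had a run of gene-strand reads that reached at least 3 kb, the start of that window. In 59 of the 116, at least 50% of the 250-base bins of the window were at 5% of last-exon density. This held for 336 of the 367 genes called at 0-1 kb and for 198 of the 250 called at 1-3 kb. A call at 3-10 kb thus does not by itself mean reads over most of that window.

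The run of gene-strand reads from the annotated end was measured in 250-base bins until a pair of neighbouring bins was under 5% of the last-exon density in both libraries. Reads in either library could thus carry a run on, and in genes with few last-exon reads a few reads in a bin reach that level. Median last-exon reads in BxC were 1199 for runs of at least 1 kb and 2537 for runs of 0. A dependence of run length on depth was not tested. The run was 0 in 1581 genes, at least 250 bases in 1052 (40.0%), at least 1 kb in 539 (20.5%), at least 3 kb in 216 (8.2%), at least 5000 bases in 110 (4.18%) and at least 10 kb in 21 (0.798%). Among the 1052 the median was 1000 bases. Junctions from the gene into the 10 kb past its end were counted where they had at least 3 reads in each library. They were found in 4 genes, of which 1 was called in any window. Per the study's methods spliced reads were aligned to junctions built from its gene models. Splicing to a site outside those models could not be seen, so how common it was is not known from this count. Khdrbs3, a neuronal RNA-binding protein, had 35 junction reads in BxC and 23 in CxB to a site 948 bases past its end.

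The sequence at the annotated end, which the read counts did not enter, differed between genes called at 0-1 kb and the other genes. A hexamer lay in the last 50 bases of 2136 of the 2633 genes (81.1%, exact Clopper-Pearson interval 79.6 to 82.6), against 5.32% of all 50-base stretches in the 12 kb past the ends. The motifs searched were AATAAA and ATTAAA on the strand of the gene. Among the 367 genes called at 0-1 kb the share was 48.5% (43.3 to 53.8), and among the 2266 others it was 86.4% (84.9 to 87.8). Among the 116 genes called at 3-10 kb it was 43.1% (33.9 to 52.6). At 500 to 550 bases past the end, a place with no relation to the annotation, the shares of the called and the other genes were 4.36% and 4.41%.

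Stretches rich in A stood past the annotated end in 119 genes, with at least 12 A in the 20 bases. They made up 16.1% (12.5 to 20.2) of the genes called at 0-1 kb and 2.65% (2.03 to 3.40) of the others. Read the other way, 175 of the 2109 genes with a hexamer and no A-rich stretch were called at 0-1 kb (8.30%), 133 of the 405 with neither (32.8%) and 56 of the 92 with an A-rich stretch and no hexamer (60.9%). For the last group the median 0-1 kb ratio was 0.245 in BxC and 0.256 in CxB, against 0.00852 and 0.00861 in the first. With both a hexamer and an A-rich stretch, 3 of 27 were called (11.1%, 2.35 to 29.2). The hexamer search stopped at the annotated end, so a hexamer inside the A-rich stretch was not counted.

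**Figure D3:**
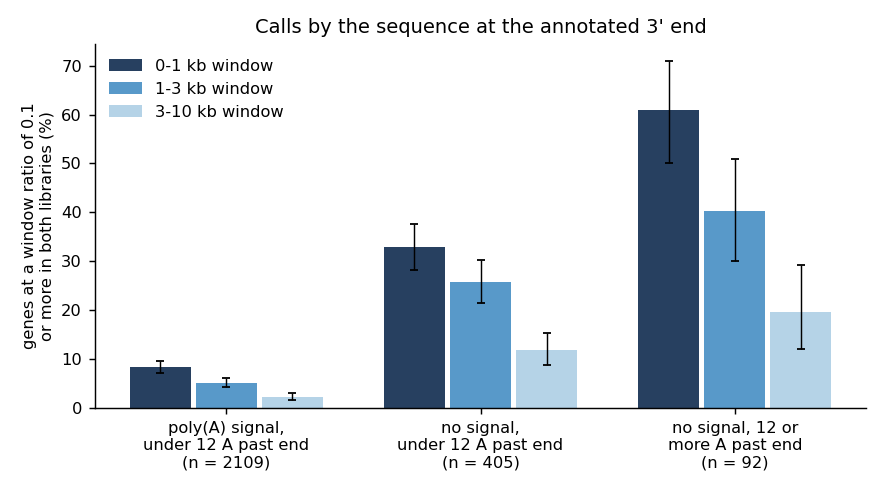
Percentage of genes with a window ratio of 0.1 or more in both libraries, by what stands at the annotated 3' end, for the 0-1, 1-3 and 3-10 kb windows, with exact binomial 95% intervals as error bars. The signal was searched in the last 50 bases before the annotated end, and A were counted in the 20 bases past it. In each window the percentage is lowest for 2109 genes with a poly(A) signal and under 12 A. It is higher for 405 genes with no signal and under 12 A, and highest for 92 genes with no signal and 12 or more A.

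In 22 genes the annotated end was the stop codon, so the model had no 3' UTR. Kcnk9 and Gpr27 are among them. Of the 22, 19 were called at 0-1 kb (86.4%, 65.1 to 97.1), 15 at 1-3 kb and 8 at 3-10 kb (36.4%, 17.2 to 59.3), against 348, 235 and 108 of the 2611 other genes. Genes called at 0-1 kb had a median last exon of 1984 bases (1792 to 2120) and the others of 2278 (2182 to 2379), and the first 1 kb past the end had a median GC content of 42.4% (41.8 to 43.3) and 45.3% (45.0 to 45.6). The median last-exon density of the called genes was 5.93 RPKM (reads per kb of exon and per 1e6 reads of the library) in BxC, against 8.21 in the others; that density is also the divisor of the ratio.

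The place where an extension ended could be compared with the sequence there. Of 1039 ends inside 12 kb, 632 lay at least 300 bases past the annotated end, and a hexamer stood in the 50 bases before 8.23% of these (6.21 to 10.7), with a background of 5.32%. In the range from 50 bases before to 150 bases after the fall, chosen after the positions were seen, a hexamer stood in 37.5% (33.7 to 41.4), and in 20.2% of all 200-base stretches past the ends. For the 215 sharp falls, those of at least 80% with at least 50 reads in the 200 bases before, it was 58.1% (51.2 to 64.8) in that range and 9.30% (5.78 to 14.0) in the 50 bases before the fall.

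The hexamers printed for Odz3, Dlg2, Cadm1, Prox1 and Foxn3 belong to such falls. Odz3 had 927 reads of both libraries in the 200 bases before the fall and 3 in the 200 after it, 1993 bases past the annotated end, and the hexamer began at base 1988. In Prox1 the reads went from 645 to 0 at base 3729, with a hexamer from base 3722. In Cadm1 they went from 551 to 7 at base 4613 with a hexamer from base 4621, in Dlg2 from 834 to 123 at base 2000 with a hexamer from base 2060, and in Foxn3 from 675 to 31 at base 4826 with a hexamer from base 4890. Other sharp falls had no hexamer in that range, among them those of Fzd3 at base 8374, Klf12 at base 4039 and Fam173b at base 8756. Prox1, Dlg2, Cadm1 and Foxn3 had no hexamer in the last 50 bases of the annotated exon, and Odz3 had one. In Prox1 AATAAA stood just past the annotated end.

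Windows upstream of the genes gave a background for the measure. For 1564 genes with no other gene within 12 kb upstream, a ratio of 0.1 in both libraries was reached before the 5' start by 355 (22.7%) at 0-1 kb, 51 (3.26%) at 1-3 kb and 14 (0.895%) at 3-10 kb. Past the 3' end of the same genes it was reached by 226 (14.45%), 157 (10.04%) and 80 (5.12%). Upstream was the higher at 0-1 kb (exact interval 20.6 to 24.9, downstream 12.7 to 16.3). Downstream was the higher at 1-3 kb (8.59 to 11.6, upstream 2.44 to 4.27) and at 3-10 kb (4.08 to 6.33, upstream 0.490 to 1.497). Both sides belong to the same genes, so the separate intervals are descriptions, and the difference was not tested.

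**Figure D4:**
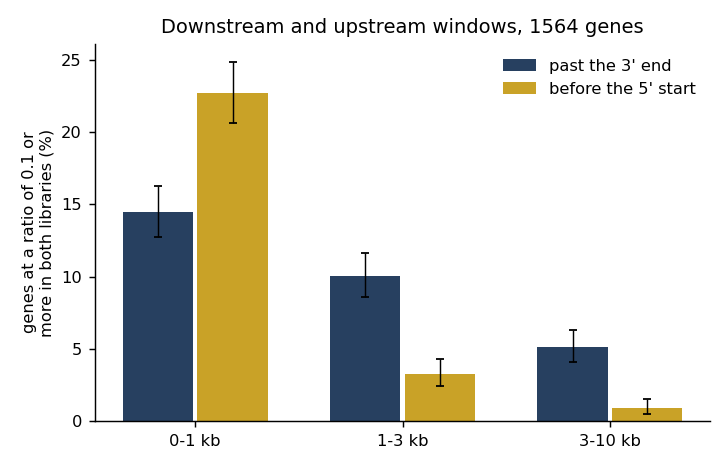
Percentage of 1564 genes with a ratio of 0.1 or more in both libraries in windows past the 3' end (dark) and before the 5' start (yellow), with exact binomial 95% intervals. Upstream windows hold the higher percentage at 0-1 kb and downstream windows the higher at 1-3 and 3-10 kb.

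The strand of the reads, which the rule did not use, also differed between the sides. Among genes called at 0-1 kb, the median share of window reads on the gene's strand was 42.1% in BxC and 41.1% in CxB, and in the last exons of those genes it was 40.8% and 40.2%. At 3-10 kb the called genes had 42.1% and 41.2%, with 40.9% and 39.9% in their last exons. Over all genes with at least 10 reads in the window, called or not, the downstream medians were 42.6% and 40.9% at 0-1 kb and 41.7% and 41.0% at 3-10 kb. In the upstream windows, with the same read minimum and among the 1564 genes with no other gene within 12 kb upstream, the median was 58.1% and 58.6% at 0-1 kb and 56.3% and 56.5% at 3-10 kb, so the majority strand past the 3' end was that of the last exon and before the 5' start it was the other strand. Of 99 called genes at 3-10 kb that no other 3' end faced, 87 had under 50% of their reads on the gene's strand in BxC, and 87 in CxB (87.9% each). In the last exons of all 2633 genes the 95th percentile of that share was 46.35% in BxC and 45.74% in CxB. A larger part of the last exons thus lay under 50%.

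The ratios of the libraries were close. Among 528, 585 and 760 genes with at least 50 window reads in each, the log2 ratio of CxB over BxC had a median of 0.01, 0.01 and 0.00 and an SD over genes of 0.35, 0.37 and 0.37 at 0-1, 1-3 and 3-10 kb. Pearson's r of the log2 ratios across genes was 0.986 in each window, as a description over genes that share library and annotation. A difference of at least 2-fold was seen in 6 genes at 0-1 kb (1.14%), 9 at 1-3 kb (1.54%) and 8 at 3-10 kb (1.05%). With each distinct position counted once there was none in any window. The number of genes compared in that way is not given here, so the counts cannot be set side by side.

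Among them Asxl2, a Polycomb-associated chromatin protein, had 60 reads at 3-10 kb in BxC and 123 in CxB, ratios of 0.0380 and 0.0925. Slit2, a secreted repellent of axons, had 53 and 95 reads at 1-3 kb, of which 32.1% and 59.0% fell on 1 position. Adamtsl4, an extracellular matrix protein, had 505 and 399 reads at 3-10 kb, ratios of 0.0590 and 0.0244. Its last exon held 941 reads in BxC and 1798 in CxB, so the divisor moved more than the window did. The 3' end of another gene faces Adamtsl4 within 20 kb, so the window reads cannot be told apart by gene. Arpp21, a striatal phosphoprotein gene, had 230 and 117 reads at 1-3 kb with 884 and 958 in its last exon.

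**Figure D5:**
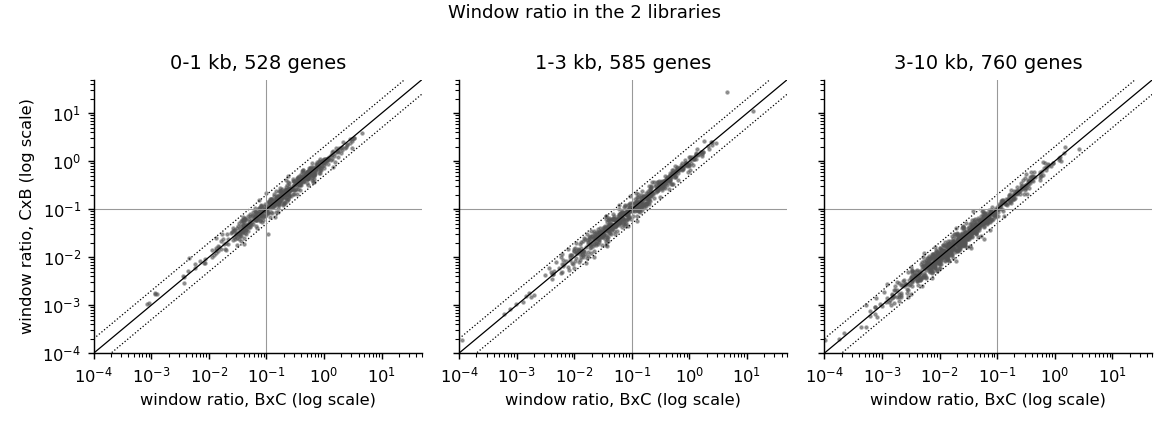
Window ratio in BxC (x axis) against CxB (y axis), both on log scales, for genes with at least 50 window reads in each library, 528 at 0-1 kb, 585 at 1-3 kb and 760 at 3-10 kb. The solid line marks equal ratios, the dotted lines 2-fold differences and the grey lines 0.1; Mau2 is the point far above the line at 1-3 kb.

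Gene groups differed in how often they were called, which is given here as a description since the lists were drawn up with earlier results known. The lists were not matched to all genes for last-exon reads. Over all genes the share called at 0-1 kb was 8.49% with at least 2000 last-exon reads. Receptors and ion channels had 35 members that met the rule, and 13 were called at 0-1 kb (37.1%, against 13.9% over all genes), 10 at 1-3 kb (28.6% against 9.49%) and 7 at 3-10 kb (20% against 4.41%). The median 0-1 kb ratio was 0.0146 and 0.0303, against 0.0114 in both libraries over all genes. Besides Grin2b, Gabrb1 and Kcnk9, the potassium channel gene Kcnq3 was called in every window with 3-10 kb ratios of 0.409 and 0.501, Kcna2, also a potassium channel gene, with 0.699 and 0.662, the kainate receptor gene Grik2 with 0.226 and 0.203 and the calcium channel gene Cacna1c with 0.229 and 0.229. These 4 were named after their values were seen. The 3-10 kb reads of Gabrb1 cannot be told apart from those of Commd8, which faces it. Gria2, an AMPA receptor subunit, was called at 0-1 kb alone.

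Axon guidance and adhesion genes had 14 of 45 called at 0-1 kb (31.1%, against 13.9% over all genes), 8 at 1-3 kb (17.8% against 9.49%) and 2 at 3-10 kb (4.44% against 4.41%). The last share is close to that of all genes. Cadm1 had 3-10 kb ratios of 0.154 and 0.136. Neural transcription factors had 8 of 47 called at 0-1 kb (17.02% against 13.9%), 4 at 1-3 kb (8.51% against 9.49%) and 2 at 3-10 kb (4.26% against 4.41%), each close to the share of all genes. The genes called at 3-10 kb were Sox11 and Prox1. The median last exon was 2935 bases in the receptors and channels, 2872 in the adhesion genes, 2869 in the transcription factors and 2213 over all genes.

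The RNA-binding, signalling, miRNA, polyadenylation, and ribosomal and glycolysis groups were small, with 0 or 1 call each at 0-1 kb, and with so few members nothing is read from their shares against the 13.9% over all genes. Of 17 neural RNA-binding protein genes 1 was called at 0-1 kb (5.88%) and none further out. Nova2 had 0-1 kb ratios of 0.0455 and 0.0472, under the threshold in both libraries. Of 17 calcium and kinase signalling genes 1 was called at 0-1 kb, and none further out. None of 4 miRNA pathway genes was called; Dicer1 had 0.00590 and 0.0106. Of 3 cleavage and polyadenylation genes 1 was called, at 0-1 kb, and Papola, the poly(A) polymerase, had 0.0128 and 0.0184. Of 6 ribosomal protein and glycolysis genes, whose transcripts end at short UTRs as a rule, Rpl15 was called at 0-1 kb with 0.532 and 0.564 and at 1-3 kb with 0.145 and 0.196.

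In the catalog of imprinted genes that the authors deposited, 14 genes met the rule, 3 were called at 0-1 kb and at 1-3 kb (21.4%, against 13.9% and 9.49% over all genes) and 2 at 3-10 kb (14.3% against 4.41%), and with so few genes nothing is read from the difference. The called genes were Kcnk9, Zim1 and Usp29. The paper had already described some of its own candidates as probable extensions of known imprinted genes. It also reported a candidate transcript that appears to extend Kcnk9, and that transcript is not among the 13 members given below. Zim1, a zinc finger gene, had 3-10 kb ratios of 0.270 and 0.310 and its reads reached 4 kb. Dlk1 had no read in the 0-1 kb window with 2267 and 2284 in its last exon, which allows a ratio of up to 0.00494 and 0.00490 at the 3-read limit of a count of 0. Zdbf2 had 2 and 4 reads there. Of 13 members among the genes that the study listed or assayed for imprinting, a list that also holds known imprinted genes such as Gnas, 0 were called in any window, where the shares over all genes were 13.9%, 9.49% and 4.41%. Adam23, a neuronal adhesion gene among those the study names, had 0-1 kb ratios of 0.0129 and 0.00449.

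At the other end of the range, of 482 genes with at least 5000 last-exon reads in each library 5 had no read at 0-1 kb in either. Gja1 had 12579 and 10248 last-exon reads and none in the next 1 kb, which allows a ratio of up to 0.000688 and 0.000845. Lsamp had reads further out, with 3-10 kb ratios of 0.00736 in BxC and 0.00374 in CxB. It had 14910 and 14666 last-exon reads and none in the next 1 kb, which allows up to 0.00152 and 0.00154. Hbb-b1 also had none. Only uniquely placed reads were kept, so reads from any sequence identical to the near-identical Hbb-b2 would not have been counted for it.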

How the data were processed

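The study sequenced polyadenylated RNA of whole brains in 36-base reads, and 2 of its libraries, 1 for each cross, were analysed here. The authors aligned the reads with Novoalign to mm9, kept reads placed uniquely, and deposited alignments with a count of identical reads on each line, a meaning of that column inferred here from its values. Per the study's methods the library preparation kept strand, through dUTP put into the second strand and treatment with the enzyme UNG. A median of 40.1% of last-exon reads in BxC and 39.1% in CxB lay on the annotated strand, so both strands were present. Continuous runs and run lengths were counted on the gene's strand, which held the minority of reads. Which BxC brain was deposited is not given in the sources used here.

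Lines were placed by the middle base of the read and summed over last exons and windows with Python 3.11.15, numpy 2.4.6, pandas 2.3.3 and scipy 1.17.1, on the GENCODE vM1 annotation. Ratios of densities and shares have exact Clopper-Pearson 95% intervals, medians have order-statistic intervals, and all cover counting error or the spread over genes only. PCR copies are not independent molecules. The counting was tested on simulated data. The catalog of imprinted genes that the authors deposited gave start and end values of entries and was used for its gene names.

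Genes were named by a rule: for each window the highest ratios (by the lower library) among genes with at least 50% of the 250-base bins at 5% of last-exon density, and the highest that missed that condition; continuous genes; 3 genes of the lowest 0-1 kb ratio among those with at least 5000 last-exon reads; the genes nearest the minimum of 500 reads; the leading members of each list at 3-10 kb; genes the study names; and the largest differences between the libraries. The rule also asked for 90% of reads on the gene's strand, which no called gene met at 0-1 or 1-3 kb, and that condition was dropped after the strand shares were seen. Other genes named for a count were chosen after their values were seen. The members and lists were chosen with earlier results of these data known.

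Alternatives were distinct positions in place of reads, the gene's own strand, windows that started 100 bases past the end, the last 1 kb of the exon as divisor, isolation by 20 kb, a minimum of 2000 reads, and other thresholds and motif searches. A gene and a sequence are not reported here.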

Additional observations from a re-analysis of the deposited data

How the results depend on the processing

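Of 149 alternative values of the main counts, medians and shares, 101 stayed within 1.5 times the reported count or within the 95% interval of the reported value, 48 moved and 0 reversed. Some of the 101 could not move. Windows that started 100 bases past the end changed at 0-1 kb only, and strand shares do not use the last-exon divisor. Continuous runs were already counted on the gene's strand. Counts, medians and shares carry no sign, so nothing is read from the 0 reversed. The shifted start also leaves ratios of named genes past 1 kb unchanged. For the 77 named genes, 1408 of 2310 ratios stayed within their counting interval and 902 moved. With distinct positions in place of reads the median ratios of BxC and CxB were 0.02676 and 0.02519 at 0-1 kb, 0.0186 and 0.01743 at 1-3 kb, and 0.008193 and 0.007327 at 3-10 kb, the median share on the gene's strand at 0-1 kb was 43.75% and 42.11%, and 0 genes differed 2-fold between the libraries in each window. Calls were then 511, 357 and 160, and held 99.46%, 98.8% and 97.41% of the genes called by reads. On the gene's own strand 1, 0 and 3 genes differed 2-fold. For distinct positions and for the gene's own strand, the number of genes compared between the libraries is not given here. With the last 1 kb of the exon as divisor the medians were 0.01468 and 0.01405, 0.01042 and 0.009714, and 0.004495 and 0.004243, with 176 calls and 15 2-fold differences at 3-10 kb and 19 continuous genes. With isolation by 20 kb, with every bin at 10%, or without facing 3' ends, 6 genes were continuous in each case.

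With at least 2000 last-exon reads (1166 genes) calls were 99, 56 and 20, or 8.49%, 4.80% and 1.72%, medians were 0.006935 and 0.007097, 0.004561 and 0.004458, and 0.001925 and 0.001809, 2-fold differences were 3, 5 and 4, the strand share was 40.6% in BxC at 1-3 kb and 40.28% in CxB at 3-10 kb, and 1 gene was continuous. This alternative tests fewer genes. At a ratio of 0.05 calls were 398 at 1-3 kb and 202 at 3-10 kb, and at 0.25 they were 214, 151 and 59. A signal was at 65.1% of annotated ends with AATAAA alone and at 83.29% in the last 100 bases. The cause of these shifts was not tested. The planned repeat mask was not run, since the genome used carried no mask; unique 36-base positions took its place, chosen after seeing the data, as were the both-strand count, the set without facing ends and the wide search for distal signals. No paired analysis was possible because 1 library of each cross was analysed here. In a lone library calls were 398 in BxC and 400 in CxB at 0-1 kb, 275 and 268 at 1-3 kb, and 121 and 118 at 3-10 kb.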
